A study of Homo sapiens with 4 samples.

Results

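Mitochondrial ribosomal protein genes were taken as the protein-coding genes of the deposited count table whose symbol starts with MRPL or MRPS followed by a digit. The rule found 78 of the 20263 genes in the table, 49 named for the large subunit (MRPL) and 29 for the small subunit (MRPS). RNA came from MDA-MB-231 cells, a human line grown from a breast cancer that lacks hormone receptors and HER2 amplification. They had been kept for 24 h in the solvent DMSO (2 libraries) or in RB-BC (2 libraries), which the series title calls a derivative of ribociclib, an inhibitor of CDK4 and CDK6. Both groups shared the line and its serum-supplemented medium. The treatment protocol in the labels writes Rib_CA where the sample labels write RB-BC, without stating that both names mean the same compound, and gives no dose. The labels do not say that the libraries of a group came from separate cultures, so the p-values rest on a spread between libraries that may be technical only.

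The mitochondrial ribosome is the ribosome of the mitochondrial matrix. It translates the small set of messenger RNAs encoded by mitochondrial DNA, which specify core subunits of the respiratory chain and of ATP synthase. Its ribosomal RNAs come from the mitochondrial genome, whereas its proteins are encoded in the nucleus, made in the cytosol and imported. Some of these proteins have counterparts in bacterial ribosomes and others are specific to mitochondria. The symbol does not always give the place of a protein: MRPS18A and MRPS30 sit in the large subunit of the human particle, and MRPS36 is now known as a subunit of the 2-oxoglutarate dehydrogenase complex.

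Library totals ran from 34774542 to 42786422 counts. The share of counts from the mitochondrial genome was 21.7% in DMSO 2 (95% Wilson interval 21.68% to 21.71%, for counting error only) against 8.68% to 10.3% in the other libraries. VIM (3303 to 5465 CPM), AXL, EGFR, CD44 and CAV1 were abundant in all libraries and CDH1, KRT5 and ESR1 were below 1 CPM, as known for this line. SPARC, which had been listed with the high markers for the check, was low (0.531 to 1.28 CPM). Of the genes listed as low, ERBB2 had 56.3 to 71.5 CPM, EPCAM 5.49 to 9.34 CPM and PGR 0.922 to 1.73 CPM. The listed blood and endothelial markers PTPRC (0.388 to 1.10 CPM) and PECAM1 (0.686 to 1.94 CPM) were above 1 CPM in some libraries. CD3E, also listed for blood, had 0 counts. Levels below are TMM-scaled CPM values, a scale that corrects for library size and composition, and SD is over n = 2 libraries.

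All 78 mitochondrial ribosomal protein genes had enough counts to be tested (242 to 7254 counts per library), and 4 passed. In edgeR's quasi-likelihood test of RB-BC against DMSO, adjusted by Benjamini-Hochberg (BH) over the 13744 genes tested, 3 members rose and 1 fell. MRPL21, MRPL53 and MRPS18B rose, and MRPS14 fell. These 4 were 5.13% of the members, where 16.1% of all genes tested passed (8.58% higher and 7.53% lower). The fitted differences were small: the median log2 fold change was 0.13 over the members (quartiles -0.13 and 0.43) and 0.00 over all genes, and 1 member (MRPL30) reached a size of 1 on the log2 scale against 12.8% of all genes. Member values lay above 0 for 47 of 78 genes (60.3%, against 49.9% of all genes). The RB-BC libraries both lay above both DMSO libraries for 31 members and both below for 15. That is 59.0% without overlap, against 65.2% of all genes tested (33.1% above and 32.1% below).

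The count of called members depended on the library left out. It was 22 (11 higher and 11 lower) without DMSO 2, where 26.0% of all genes passed and 28.2% of members did. It was 8 without DMSO 1 (10.3% of members, 23.1% of all genes). Dropping RB-BC 1 left 0 (1.47% of all genes), and dropping RB-BC 2 left 1 (3.23% of all genes). The 4 called members passed with either DMSO library left out and with GC-adjusted offsets, and none of them passed with either RB-BC library left out. At an unadjusted p below 0.05 there were 27 members (20 higher and 7 lower), or 34.6%, where 35.1% of all genes had such a value, so by this measure the members lay at the share of all genes. A member that did not pass is not shown to be unchanged. DESeq2 called 17 members (21.8%, against 23.5% of all genes), limma-voom 4 (16.6% of all genes) and edgeR's exact test 11 (14.1%, against 22.5% of all genes). With library totals alone 1 member passed (8.77% of all genes), with the replicate block 5 (15.4% of all genes) and with GC-adjusted offsets, described further on, 5 (18.5% of all genes).

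**Figure D1:**
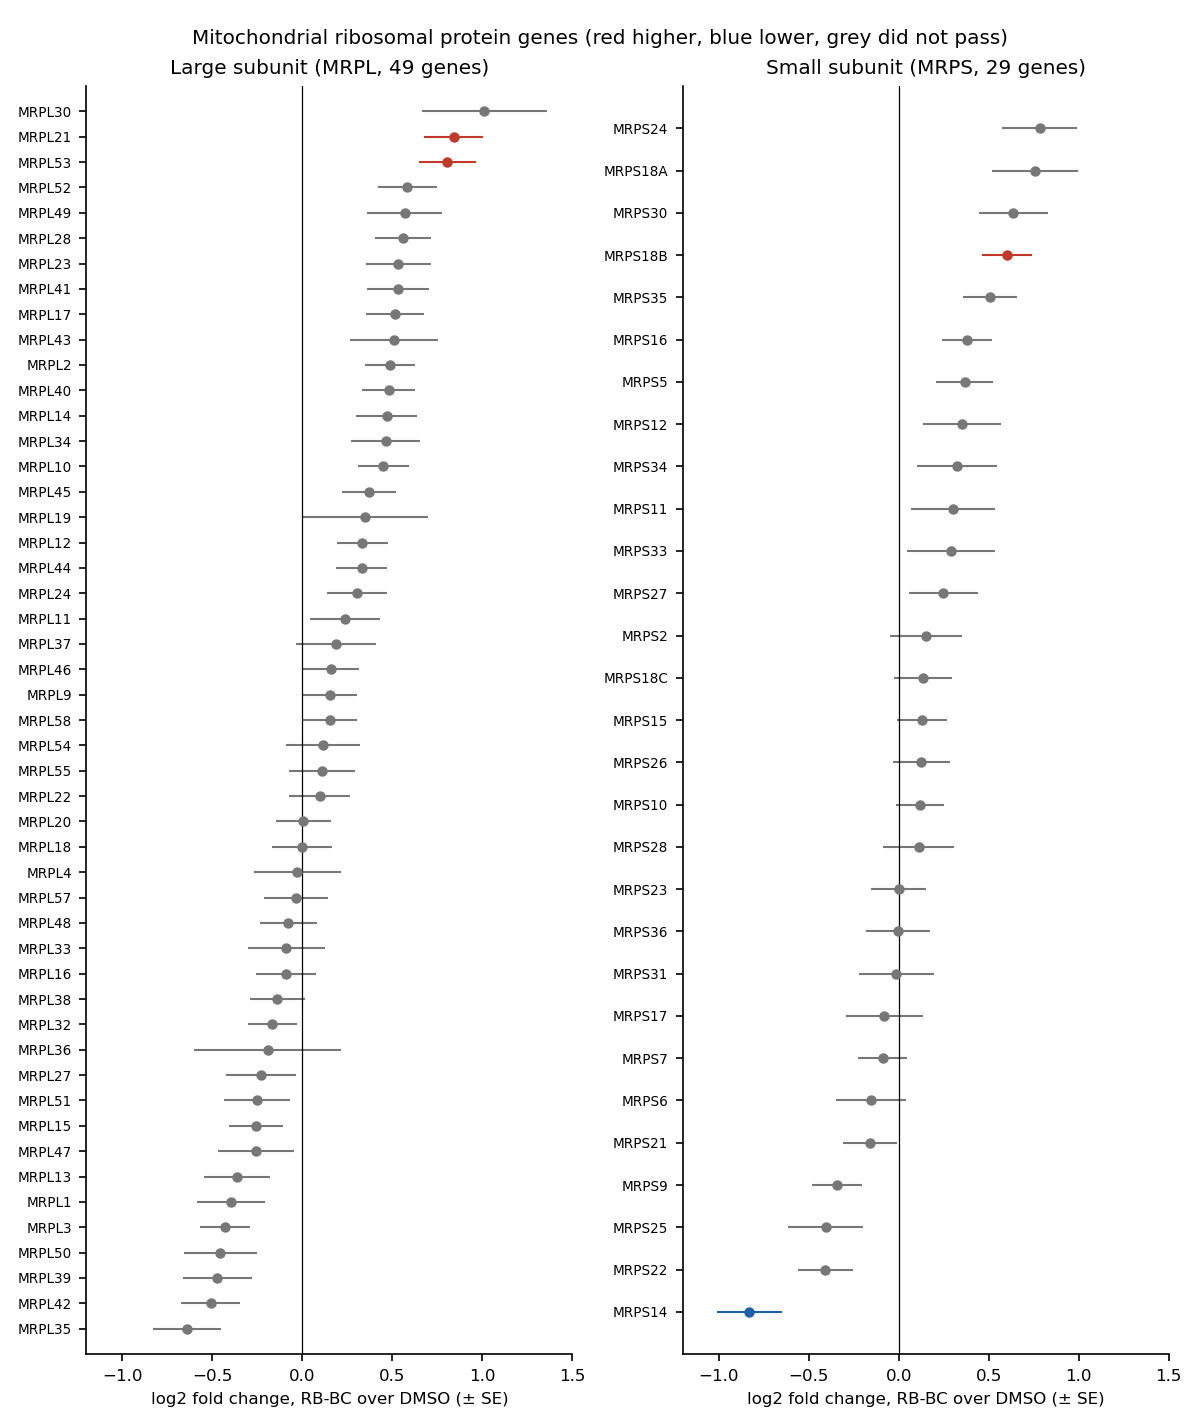
Log2 fold change of each of the 78 members, RB-BC over DMSO (horizontal axis), with its standard error as a bar, in the large subunit (left, 49 genes) and the small subunit (right, 29 genes), sorted by value. MRPL21, MRPL53 and MRPS18B (red) passed upward and MRPS14 (blue) downward, while grey genes did not pass.

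Large and small subunits had nearly the same centre. The median log2 fold change was 0.15 over the 49 MRPL genes (range -0.64 to 1.01) and 0.13 over the 29 MRPS genes (range -0.83 to 0.78), a difference of 0.02. Per library, that difference in level, relative to each gene's mean over the libraries, was -0.09 and -0.03 in the first and second DMSO library and 0.07 and -0.02 in the RB-BC libraries, so RB-BC 2 lay close to DMSO 2. With the trend on GC content taken out, the difference was -0.061, with medians of 0.06 for MRPL and 0.12 for MRPS genes. In the large subunit 2 genes rose and 0 fell by edgeR's test, with 14 higher and 4 lower at an unadjusted p below 0.05; among the lower ones DESeq2 called 3, limma-voom 0 and the exact test 1. In the small subunit 1 rose and 1 fell, with 6 higher and 3 lower at that unadjusted p. The shares called were 4.08% in the large and 6.9% in the small subunit, against 16.1% of all genes. At the unadjusted p they were 36.7% and 31%, against 35.1% of all genes. With the subunits taken as assembled (MRPS18A and MRPS30 moved to the large subunit, MRPS36 left out) the medians were 0.15 and 0.13 over 51 and 26 genes, with the same calls.

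Summed over genes, MRPL transcripts came to 1991 and 1938 CPM in DMSO and 2252 and 2072 CPM in RB-BC. MRPS transcripts came to 1347 and 1418 CPM in DMSO and 1661 and 1594 CPM in RB-BC. Both sums were thus higher in both RB-BC libraries, and abundant members weigh most in them. The ratio of the MRPL to the MRPS sum was 1.48 and 1.37 in DMSO and 1.36 and 1.30 in RB-BC, so that DMSO 2 and RB-BC 1 nearly met. With the subunits as assembled the ratio was 1.67 and 1.60 in DMSO and 1.65 and 1.56 in RB-BC, and the groups overlapped. Neither ratio was tested.

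In the large subunit the clearest rises were in MRPL21 and MRPL53. MRPL21, the counterpart of a bacterial large-subunit protein, had 17.3 and 18.3 CPM in DMSO and 34.7 and 29.1 CPM in RB-BC. Its log2 fold change was 0.84 ± 0.16 (SE), or 1.79-fold (edgeR BH-adjusted p = 0.0256). MRPL53, a mitochondria-specific protein at the base of the stalk, had 13.5 and 14.2 CPM in DMSO and 25.7 and 22.8 CPM in RB-BC, a log2 fold change of 0.80 ± 0.16 (edgeR BH-adjusted p = 0.0258). For both genes the DMSO libraries lay close together and well below both RB-BC libraries. Without RB-BC 1 their adjusted p by edgeR was 0.210 and 0.212, at log2 fold changes of 0.71 and 0.72, and without RB-BC 2 it was 0.0771 and 0.100, at 0.96 and 0.89. With library totals alone MRPL53 did not pass (edgeR BH-adjusted p = 0.0534). Exons of MRPL53 overlap those of CCDC142 on the same strand, so reads of these genes may not be separable.

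MRPL30 had the largest fitted value of the members but did not pass. This counterpart of a bacterial protein had 18.1 and 15.1 CPM in DMSO against 45.2 and 21.6 CPM in RB-BC (log2 fold change 1.01 ± 0.35, edgeR BH-adjusted p = 0.0990). RB-BC 1 alone lay far above the rest, and the value was 0.39 without it and 1.45 without RB-BC 2, where it passed (edgeR BH-adjusted p = 0.0262). It also passed with DESeq2, the exact test and the replicate block, and its exons overlap 2 clone-named genes on the same strand.

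At the other end of the large subunit were MRPL35 and MRPL42. Neither passed edgeR's quasi-likelihood test, while DESeq2 called both lower and the exact test MRPL35. MRPL35, another bacterial counterpart, had 68.7 and 50.2 CPM in DMSO and 36.8 and 39.4 CPM in RB-BC (-0.64 ± 0.19, edgeR BH-adjusted p = 0.0675). Without DMSO 2 it passed at -0.85 (edgeR BH-adjusted p = 0.0131). MRPL42, specific to mitochondria, had 47.3 and 56.9 CPM in DMSO and 38.9 and 34.3 CPM in RB-BC (-0.51 ± 0.16, edgeR BH-adjusted p = 0.0833), and passed without DMSO 1 (-0.64, edgeR BH-adjusted p = 0.0344). For both genes every RB-BC library lay below every DMSO library, and each has 4 pseudogenes carrying its symbol in GENCODE 29. Such pseudogenes are present for 34 of the 78 members. Among the called genes MRPS18B has 2, MRPL53 has 1, and MRPL21 and MRPS14 have 0.

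The stalk of the large subunit, which recruits translation factors, is built on MRPL10, MRPL11 and MRPL12. The fitted values of the 5 stalk and stalk-base genes were all above 0 (median 0.33, range 0.12 to 0.80), but MRPL53 alone passed. With the GC trend taken out their median was 0.19, with MRPL12 at 0.06 and MRPL54 at -0.14. MRPL10 had 30.8 and 34.1 CPM in DMSO and 45.0 and 43.6 CPM in RB-BC (0.45 ± 0.14, edgeR BH-adjusted p = 0.0820). MRPL12, also known to bind the mitochondrial RNA polymerase, had 64.8 and 64.7 CPM in DMSO and 86.2 and 77.0 CPM in RB-BC (0.33 ± 0.14, edgeR BH-adjusted p = 0.148). Neither pair of groups overlapped, yet the differences were of the size of many others in these libraries.

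Around the exit tunnel, where nascent chains leave towards the inner membrane, the median of 8 genes was 0.32 (range -0.47 for MRPL39 to 0.53 for MRPL23). MRPL45, which anchors the particle to the membrane, had 62.9 and 55.0 CPM in DMSO and 72.1 and 80.4 CPM in RB-BC (0.37 ± 0.15, edgeR BH-adjusted p = 0.137). In the central protuberance the median of 8 genes was 0.08. Its member MRPS30, placed there despite its small-subunit symbol, had 48.2 and 67.3 CPM in DMSO and 89.5 and 90.2 CPM in RB-BC (0.64 ± 0.19, edgeR BH-adjusted p = 0.0715). The DMSO libraries differed widely for MRPS30, and without DMSO 2 it passed at 0.90 (edgeR BH-adjusted p = 0.0117).

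A further pair of large-subunit genes was listed for roles outside peptide synthesis or at its end. MRPL41, specific to mitochondria, had 19.9 and 20.0 CPM in DMSO and 32.2 and 25.5 CPM in RB-BC (0.53 ± 0.17, edgeR BH-adjusted p = 0.0882). MRPL58, a peptidyl-tRNA hydrolase that is also a ribosomal protein, had 24.6 and 21.6 CPM in DMSO and 25.9 and 25.6 CPM in RB-BC (0.15 ± 0.15, edgeR BH-adjusted p = 0.515). With the GC trend taken out MRPL41 was at 0.12, down from 0.53.

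In the small subunit MRPS14 fell. MRPS14, a counterpart of a bacterial protein in the head of the subunit, had 25.5 and 20.1 CPM in DMSO and 12.9 and 12.8 CPM in RB-BC, so that the RB-BC libraries were nearly equal and below both DMSO libraries. Its log2 fold change was -0.83 ± 0.18, or 1.78-fold lower (edgeR BH-adjusted p = 0.0327). By edgeR's test the adjusted p was 0.203 when RB-BC 1 was left out and 0.157 for RB-BC 2, with the value at -0.83 in both fits, and 0.106 with library totals alone. Its exons overlap those of CACYBP on the other strand, and the strand setting of the authors' counting is not stated.

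MRPS22, specific to mitochondria, was next in order on the low side with 40.9 and 35.1 CPM in DMSO and 28.4 and 28.8 CPM in RB-BC (-0.41 ± 0.15, edgeR BH-adjusted p = 0.118), and passed without DMSO 2 (-0.51, edgeR BH-adjusted p = 0.0401). MRPS24 had the largest value of the small-subunit genes, with 41.4 and 47.4 CPM in DMSO and 90.3 and 62.6 CPM in RB-BC (0.78 ± 0.21, edgeR BH-adjusted p = 0.0545). It passed with DESeq2, the exact test and the replicate block, and shares its exons with the read-through gene URGCP-MRPS24. MRPS12, a protein of the decoding centre, had 25.2 and 20.7 CPM in DMSO and 34.2 and 24.3 CPM in RB-BC, groups that overlapped (0.35 ± 0.22, edgeR BH-adjusted p = 0.295).

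The 3 genes of the MRPS18 family, which descend from the same bacterial protein but whose products take different places in the particle, did not have like values. MRPS18B rose from 75.3 and 70.0 CPM in DMSO to 114 and 106 CPM in RB-BC (0.60 ± 0.14, edgeR BH-adjusted p = 0.0389). MRPS18A had 36.3 and 52.1 CPM in DMSO and 86.3 and 62.9 CPM in RB-BC, a larger fitted value of 0.76 ± 0.24 with a wider spread (edgeR BH-adjusted p = 0.0812). MRPS18C, with 31.0 and 26.0 CPM in DMSO and 30.0 and 32.7 CPM in RB-BC, overlapped between groups (0.13 ± 0.16, edgeR BH-adjusted p = 0.587). The differences among the 3 were not tested. The call of MRPS18B was lost with library totals alone (edgeR BH-adjusted p = 0.0975), with the replicate block (0.60, edgeR BH-adjusted p = 0.0686), without RB-BC 1 (0.55, edgeR BH-adjusted p = 0.319) and without RB-BC 2 (0.66, edgeR BH-adjusted p = 0.196), whereas MRPS18A passed without DMSO 2 (1.04, edgeR BH-adjusted p = 0.0296), with DESeq2 and with the exact test.

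**Figure D2:**
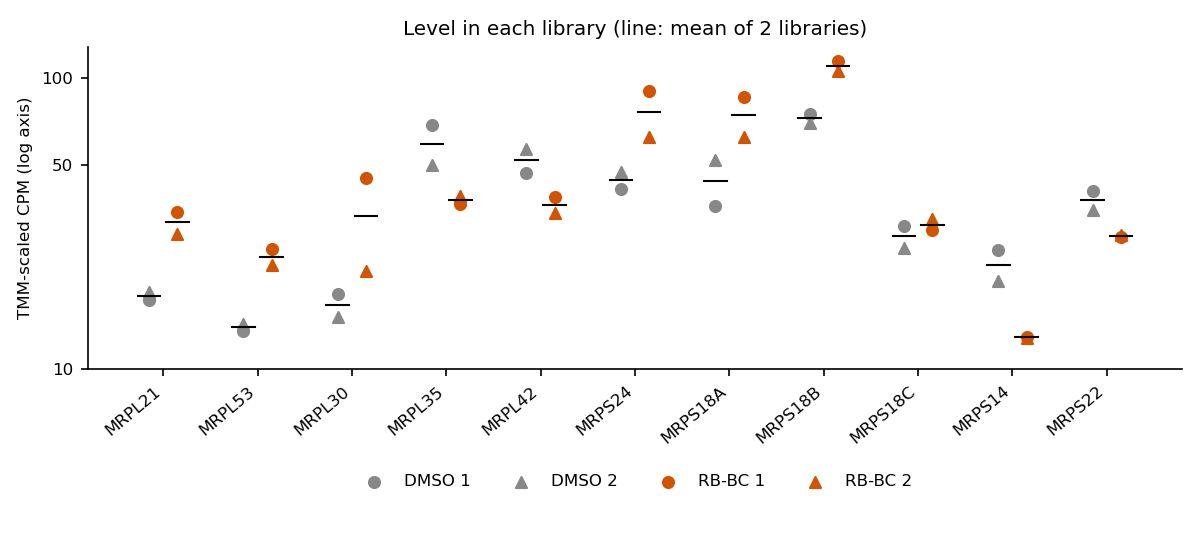
TMM-scaled CPM (vertical log axis) of the genes with a call or at the ends of the order and of the MRPS18 family in each library, DMSO in grey and RB-BC in orange, replicate 1 as circles and replicate 2 as triangles, with lines at the group means. The DMSO and RB-BC points of MRPL21, MRPL53, MRPS18B and MRPS14 are well apart, those of MRPS18C mix, and the 2 RB-BC points of MRPL30 lie at 45.2 and 21.6 CPM.

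Promoter windows from RefSeq (GRCh38.p14), reaching from 250 bases before to 50 bases after a transcription start, were found for 69 of the 78 members, in 85 windows. Nuclear genes for mitochondrial proteins are known for sites of ETS family factors such as GABP and of NRF1 and YY1. The 6 motifs searched on both strands were chosen after the shares of several motifs had been seen. CCGGAAG, the core of ETS sites, was present in 38.8% of the member windows against 10.3% of all 35116 windows in the table. AAGATGGC, the core of YY1 sites, was present in 27.1% against 2.89%, and GCATGCGC, the NRF1 core, in 7.06% against 3.05%. The E-box CACGTG was in 10.6% against 7.26%, the box CCAAT in 32.9% against 34.6% and the GC box GGGCGGG in 47.1% against 33.1%. The first and second of these motifs were thus several times more frequent in member windows, and 43 of the 69 members held at least 1 of them. These shares describe letters in a window and say nothing of binding, and windows of a gene can overlap. AAGATGGC also holds the letters of a start codon.

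**Figure D3:**
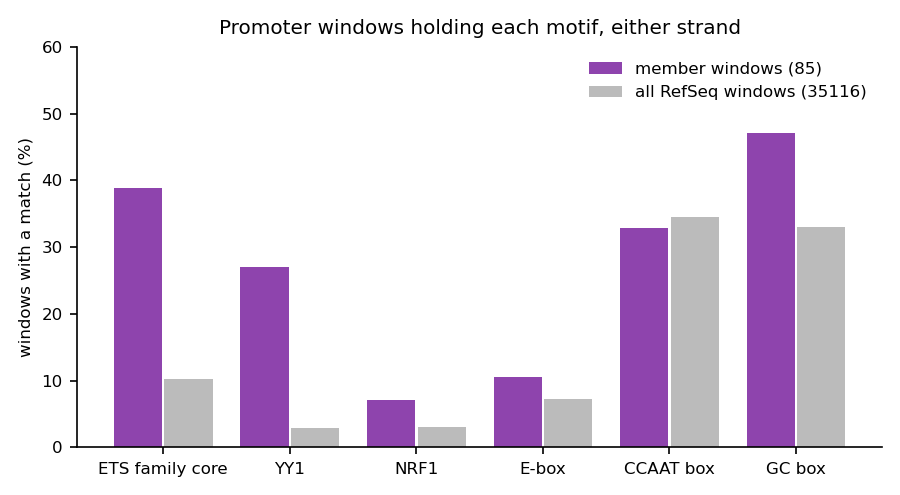
Percent of promoter windows (vertical axis) with at least 1 match of each named motif on either strand, for the 85 windows of the members (purple) and all 35116 windows (grey). ETS core (38.8% against 10.3%) and YY1 (27.1% against 2.89%) stand apart most in ratio, and the CCAAT box is at about the same share in both.

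Members with and without CCGGAAG or AAGATGGC had similar medians. Those with CCGGAAG had a median log2 fold change of 0.12 (30 genes) and those without it 0.16 (39 genes). Members with AAGATGGC were at 0.12 (21 genes) and those without it at 0.14 (48 genes). For GCATGCGC the medians lay further apart, at 0.33 with it (6 genes) and 0.13 without it (63 genes). Medians with the E-box, CCAAT box and GC box were 0.18, 0.13 and 0.15, against 0.12, 0.15 and 0.13 without them. None of these differences was tested. By subunit, CCGGAAG was in windows of 18 of 42 MRPL and 12 of 27 MRPS genes, and AAGATGGC in 13 and 8. The windows of MRPL53 and MRPS14, called in opposite directions, and of the MRPS18 family are shown for that reason, as the 250 bases before the start, 5′ to 3′ on the strand of the gene, with matches of CCGGAAG, AAGATGGC and GCATGCGC in capitals.
MRPL53: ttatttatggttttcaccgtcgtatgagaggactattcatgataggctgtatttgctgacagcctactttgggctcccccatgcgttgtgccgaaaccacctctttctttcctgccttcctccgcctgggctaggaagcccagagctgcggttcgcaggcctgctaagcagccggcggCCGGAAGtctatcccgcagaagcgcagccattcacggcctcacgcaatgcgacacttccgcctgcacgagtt
MRPS14: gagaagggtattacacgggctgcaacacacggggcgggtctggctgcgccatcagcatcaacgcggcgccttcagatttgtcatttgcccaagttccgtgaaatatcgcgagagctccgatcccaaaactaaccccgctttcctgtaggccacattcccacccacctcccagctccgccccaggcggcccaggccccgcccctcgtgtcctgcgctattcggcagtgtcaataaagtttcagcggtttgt
MRPS18A: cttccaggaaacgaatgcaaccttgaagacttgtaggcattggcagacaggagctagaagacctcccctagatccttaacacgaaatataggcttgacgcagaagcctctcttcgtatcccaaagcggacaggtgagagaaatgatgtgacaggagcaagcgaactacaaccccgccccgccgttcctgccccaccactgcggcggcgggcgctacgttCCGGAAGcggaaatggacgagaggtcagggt
MRPS18B: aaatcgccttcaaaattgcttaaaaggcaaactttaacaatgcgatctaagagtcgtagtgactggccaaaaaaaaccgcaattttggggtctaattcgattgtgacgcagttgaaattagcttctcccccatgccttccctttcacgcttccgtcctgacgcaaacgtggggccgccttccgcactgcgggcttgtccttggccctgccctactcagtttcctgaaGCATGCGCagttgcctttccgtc
MRPS18C: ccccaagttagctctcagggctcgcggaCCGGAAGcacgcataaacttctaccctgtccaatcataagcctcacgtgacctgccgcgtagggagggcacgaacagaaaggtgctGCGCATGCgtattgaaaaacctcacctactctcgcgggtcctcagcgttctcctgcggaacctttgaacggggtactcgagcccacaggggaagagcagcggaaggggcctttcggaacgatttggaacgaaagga

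MRPL53 lies at chr2:74472681-74472930 (minus strand), MRPS14 at chr1:175023426-175023675 (minus strand), MRPS18A at chr6:43687792-43688041 (minus strand), MRPS18B at chr6:30617590-30617839 (plus strand) and MRPS18C at chr4:83455808-83456057 (plus strand), all for the printed part. MRPL53 has CCGGAAG from base -72, counted from the start, and again in reverse complement from base 1, outside the printed part. MRPS14 has none of the 3 marked motifs. MRPS18A has CCGGAAG from base -31, MRPS18B has GCATGCGC from -23, and MRPS18C has CCGGAAG from -222 and GCATGCGC in reverse complement from -136. Just after the start, MRPS18A and MRPS18B both hold AAGATGGC, from bases 10 and 24, and MRPS18C does not. These sites, with their flanks, are the following.
MRPS18A: ggtttttgAAGATGGCggccctca
MRPS18B: cgtacgtcAAGATGGCggcgtctg

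They lie at chr6:43687767-43687790 and chr6:30617855-30617878. No window of MRPL21 was in the table.

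Levels are compared between genes only per kilobase of the median protein-coding transcript. On that scale members ranged from 8.43 CPM per kilobase for MRPS14 to 158 for MRPL51, with a median of 36.0. MRPL24 (123) and MRPL17 (107) were next to MRPL51, and MRPL22 (9.87) and MRPL50 (10.8) next to MRPS14. MRPL51 and MRPL24 had transcripts of 501 and 883 bases and MRPS14 and MRPL50 of 2115 and 3332 bases, so the order depends on the transcript chosen. The called genes were spread over the range, with MRPS18B at 59.6, MRPL21 at 36.4 and MRPL53 at 24.6 CPM per kilobase.

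Within the DMSO pair some members differed more than between the groups. MRPL36 had 28.9 and 11.9 CPM in DMSO 1 and DMSO 2, MRPL19 had 24.6 and 11.5, and MRPL4 had 71.3 and 111. Fitted values of these 3 were -0.19 ± 0.41, 0.35 ± 0.35 and -0.03 ± 0.24. They were chosen after their values were seen, as examples of a wide spread between the DMSO libraries, and are not typical of the members.

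Values of the members moved with the GC content of their transcripts, also between libraries of the same group. Across the 78 members, which share the same 4 libraries, GC content (median over the protein-coding transcripts of a gene) went with the log2 fold change at Pearson r = 0.45 and Spearman rho = 0.48. With the DMSO 2 to DMSO 1 log2 ratio it went at r = 0.48 and rho = 0.55, and with the RB-BC 2 to RB-BC 1 ratio at r = -0.43 and rho = -0.59. Over 13728 genes tested with a GC value the first of these was r = 0.19 and rho = 0.23. The 42 members over 50% GC had a median log2 fold change of 0.33 and held the 3 rises, and the 36 at or below it had -0.06 and held the fall. All genes tested had medians of 0.12 and -0.11 in the same classes. Their calls were placed in a like way: of 6932 genes over 50% GC, 815 rose and 374 fell. Of 6796 genes at or below it, 364 rose and 660 fell. When each library's trend on GC content was taken out, the correlation over members was r = 0.07 and the member median 0.09, against -0.02 over all genes. The same 4 members then passed, and MRPS35, named after its value was seen, passed as well. What part GC content had in any single value was not tested otherwise.

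**Figure D4:**
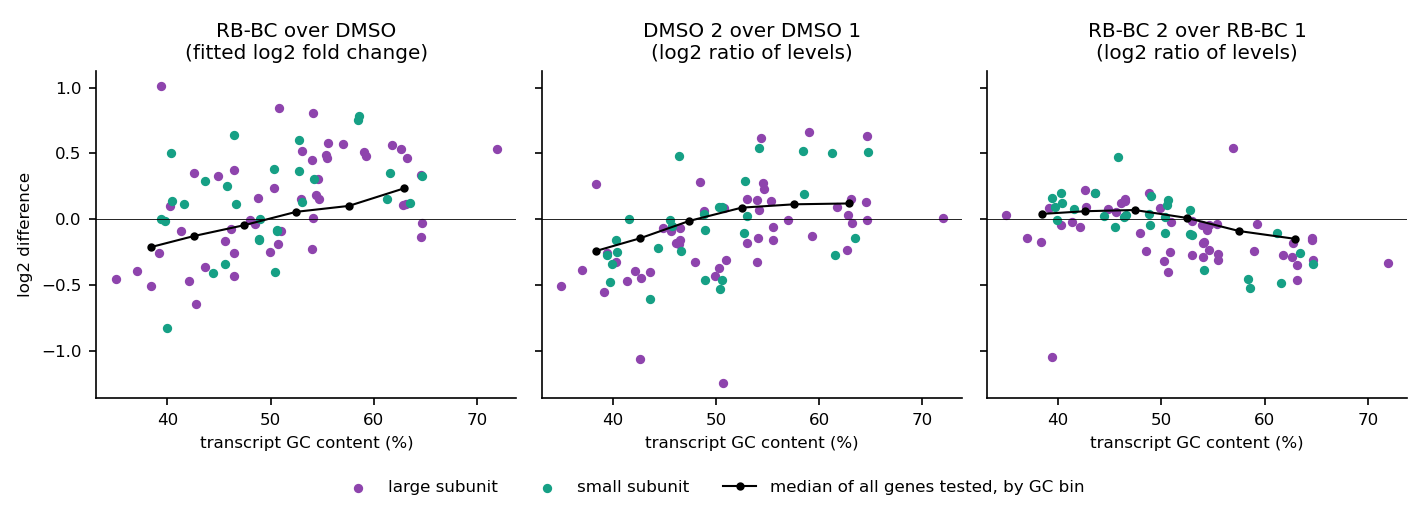
Log2 differences (vertical axis) against transcript GC content in percent (horizontal axis) for the members of the large (purple) and small subunit (green), with the median of all genes tested per GC bin as a black line: RB-BC over DMSO (left), DMSO 2 over DMSO 1 (middle) and RB-BC 2 over RB-BC 1 (right). Members of high GC content lie higher in the left and middle panels (rho = 0.48 and 0.55) and lower in the right panel (rho = -0.59).

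Proteins with and without a bacterial counterpart had similar medians. The 48 genes of conserved proteins had a median of 0.12, with 2 rises (MRPL21 and MRPS18B) and 1 fall (MRPS14), or 6.25% called, below the 16.1% over all genes. MRPS18B was counted as conserved although the products of its family take different places in the particle, and the split of calls depends on that choice. The 29 genes of mitochondria-specific proteins had a median of 0.16, with 1 rise (MRPL53) and 0 falls by edgeR's test, or 3.45%. At an unadjusted p below 0.05, 8 of these 29 were higher and 3 lower (37.9%, against 35.1% of all genes). DESeq2 called 8 conserved genes higher and 3 lower, and 5 specific genes higher and 1 lower, while 23.5% of all genes passed. The exact test called 6 and 2 conserved genes and 3 and 0 specific ones, and limma-voom gave the counts of the quasi-likelihood test. With the GC trend taken out the medians were 0.06 and 0.10.

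The other proteins of the particle and its helpers were taken from lists. Of 5 mitoribosomal proteins with other symbols (DAP3, PTCD3, CHCHD1, AURKAIP1 and GADD45GIP1), 0 passed edgeR's test, 0 had an unadjusted p below 0.05 and 0 passed with DESeq2, limma-voom or the exact test. Their median was 0.12, from PTCD3 at -0.37 to GADD45GIP1 at 0.53. Of all genes tested, 16.1% passed edgeR's test and 35.1% had an unadjusted p below 0.05. Of 14 mitochondrial translation factors, such as TUFM (0.04) and TSFM (-0.55), 0 passed edgeR's test. At an unadjusted p below 0.05 there were 3 of them (21.4%, against 35.1% of all genes). DESeq2, limma-voom and the exact test called 1, 0 and 1, where 23.5%, 16.6% and 22.5% of all genes passed.

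Among 29 genes for assembly of the particle and modification of its ribosomal RNA, 1 rose and 1 fell (6.90%, against 16.1% of all genes). NOA1, a GTPase of small-subunit assembly, rose from 41.7 and 39.5 CPM in DMSO to 68.8 and 67.7 CPM in RB-BC (0.75 ± 0.13, edgeR BH-adjusted p = 0.0206). MTERF4, which works in large-subunit assembly together with NSUN4, fell from 17.0 and 17.0 CPM to 8.83 and 4.68 CPM (-1.33 ± 0.31, edgeR BH-adjusted p = 0.0394). MTERF4 did not pass without DMSO 1 (-1.33), DMSO 2 (-1.33) or RB-BC 2 (-0.95) (edgeR BH-adjusted p = 0.0648, 0.0561 and 0.111), and NOA1 missed the threshold when either RB-BC library was dropped (edgeR BH-adjusted p = 0.181 and 0.139). With library totals alone neither passed (edgeR BH-adjusted p = 0.0583 for NOA1 and 0.0587 for MTERF4).

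Of 18 genes of mitochondrial transcription and mRNA handling, 1 rose and 2 fell, or 16.7%, which is at the share over all genes (16.1%). TFAM, which packages mitochondrial DNA and is needed to start its transcription, fell from 99.1 and 79.2 CPM in DMSO to 45.4 and 51.6 CPM in RB-BC (-0.88 ± 0.17, edgeR BH-adjusted p = 0.0255). PNPT1, a ribonuclease of mitochondrial RNA turnover, fell (-0.74 ± 0.16, edgeR BH-adjusted p = 0.0340). POLRMT, the mitochondrial RNA polymerase, rose from 62.5 and 57.8 to 93.8 and 85.6 CPM (0.58 ± 0.14, edgeR BH-adjusted p = 0.0437), but was at 0.28 with the GC trend taken out (edgeR BH-adjusted p = 0.191). Its call was also lost with library totals alone, with no low-count filter and with the replicate block (edgeR BH-adjusted p = 0.110, 0.0508 and 0.0757). TFAM and PNPT1 did not pass with library totals alone (edgeR BH-adjusted p = 0.0788 and 0.120). None of these 3 passed without RB-BC 1 (edgeR BH-adjusted p = 0.211, 0.232 and 0.346), nor when RB-BC 2 was left out (edgeR BH-adjusted p = 0.104, 0.185 and 0.205).

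Among 10 nuclear regulators of mitochondrial genes 1 passed (10%, against 16.1% of all genes), at a median log2 fold change of -0.28. At an unadjusted p below 0.05, 2 of them were higher and 2 lower (40%, against 35.1% of all genes). ESRRA, an estrogen-related nuclear receptor, was the gene that passed, and it rose (1.12 ± 0.24, edgeR BH-adjusted p = 0.0308). It did not pass with library totals alone (edgeR BH-adjusted p = 0.0578), without RB-BC 1 (0.85, edgeR BH-adjusted p = 0.178) or with the GC trend taken out (0.84, edgeR BH-adjusted p = 0.0617). GABPA (-0.09), GABPB1 (-0.38), NRF1 (-0.23) and YY1 (-0.34), whose motifs were searched above, did not pass.

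The transcripts that the particle translates differed mainly between the DMSO libraries. By edgeR's test 0 of the 13 mitochondrially encoded mRNAs passed (against 16.1% of all genes), also 0 at an unadjusted p below 0.05 (against 35.1%). DESeq2, limma-voom and the exact test called 0 of them, where 23.5%, 16.6% and 22.5% of all genes passed. The median log2 fold change of the 13 mRNAs was -0.99. The median DMSO 2 to DMSO 1 log2 ratio of these mRNAs was 1.71, whereas that of the members was -0.08. Without DMSO 1 all 13 passed as lower, and without DMSO 2 3 of them passed as higher.

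The members were set beside the 2 most similar gene groups. Of 81 tested cytosolic ribosomal protein genes 33 rose and 0 fell (40.7%, against 16.1% of all genes), with a median of 0.67. At an unadjusted p below 0.05 there were 62, all upward, or 76.5% against 35.1% of all genes. DESeq2, limma-voom and the exact test called 54, 42 and 48 of them higher and 0 lower. Their summed level was 31901 and 29400.0 CPM in DMSO and 50943 and 45673 CPM in RB-BC, whereas that of the members was 3337 and 3356 CPM in DMSO and 3913 and 3666 CPM in RB-BC. Examples are RPS29 (1.06 ± 0.16, edgeR BH-adjusted p = 0.0141) and RPL12 (1.11 ± 0.17, edgeR BH-adjusted p = 0.0148). The count of rises was 19 with library totals alone, 53 with DMSO 1 left out, 43 with DMSO 2 left out, 0 with RB-BC 1 left out and 1 with RB-BC 2 left out. Over all genes the share called also moved with these settings, as given above for the members. Of 77 tested nuclear-encoded subunits of oxidative phosphorylation 6 rose and 0 fell (7.79%, against 16.1% of all genes), with a median of 0.20. At an unadjusted p below 0.05, 21 were higher and 2 lower (29.9%, against 35.1% of all genes). DESeq2, limma-voom and the exact test called 0 of these subunits lower. NDUFA13, of complex I, was the first of these by p (1.01 ± 0.16, edgeR BH-adjusted p = 0.0166). That count was 4 with library totals alone, 13 with DMSO 1 left out, 6 with DMSO 2 left out (with 3 lower), 0 with RB-BC 1 left out and 1 with RB-BC 2 left out. The members thus lay closer in share called and in median to the respiratory chain subunits than to the cytosolic ribosomal proteins, a comparison given without a test.

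**Figure D5:**
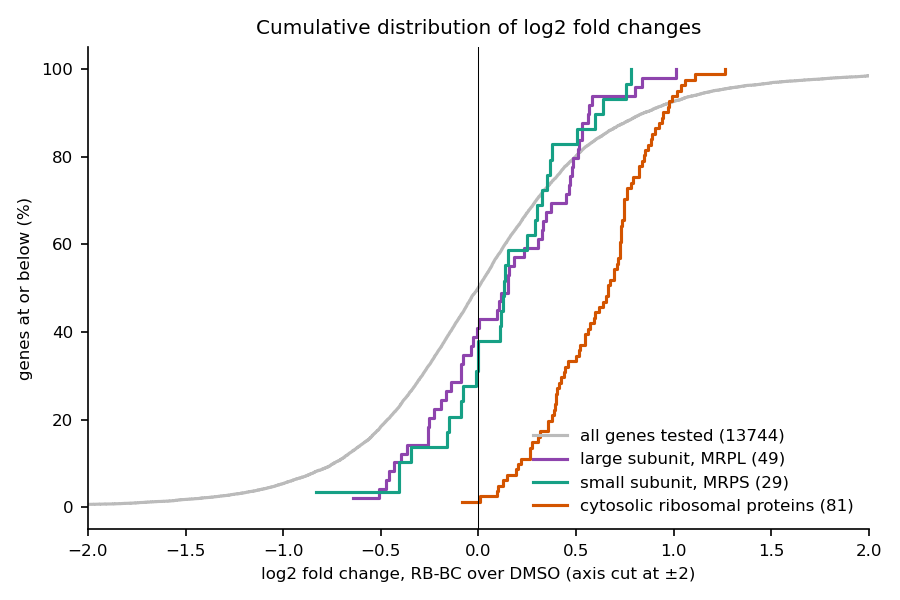
Percent of genes at or below each log2 fold change, RB-BC over DMSO (horizontal axis, drawn from -2 to 2), for all 13744 genes tested (grey), large-subunit members (purple), small-subunit members (green) and 81 cytosolic ribosomal protein genes (orange). The subunit curves run together near the middle (medians 0.15 and 0.13), left of the cytosolic curve (median 0.67).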

How the data were processed

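Messenger RNA libraries of MDA-MB-231 cells, 2 per group, were analysed from the raw gene counts that the authors deposited. No aligner, counter, annotation or strand setting is named in the labels. Mouse builds (GRCm38, mm10) stand in the submitters' processing notes, while the identifiers in the table are human Ensembl genes, so no coordinate was taken from the table. Symbols came from a gene table for 19761 identifiers and from GENCODE 29 for 463, and 39 had none.

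The main test was edgeR's quasi-likelihood test (edgeR 4.0.16, R 4.3.3) with TMM scaling, after filterByExpr (minimum count 10, minimum total 15), with Benjamini-Hochberg adjustment over 13744 genes and a threshold of 0.05. Checks on simulated data were run first. Alternatives were DESeq2 1.42.0, limma-voom 3.58.1, edgeR's exact test, other scalings and filters, a replicate block and each library left out. A correction for GC content (loess per library, span 0.5) was added after the data were seen. With 2 libraries against 2, an exact permutation test of a single value cannot go below p = 0.333, so none was used. Library totals set the counting precision, and intervals cover counting error only.

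Members and lists were chosen with earlier results of these data known. Named genes are the called members, the 2 highest and 2 lowest fold changes per subunit, a panel of 10 members with known roles and the 3 called genes of smallest adjusted p per list. Other genes were named after their values were seen.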

Additional observations from a re-analysis of the deposited data

How the results depend on the processing

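The small number of called members and the near-equal subunit medians were the results tested for dependence on processing. With library totals alone, 1205 genes were called in all, with 1 MRPL gene higher and 0 MRPS genes higher or lower. DESeq2 called 8 MRPL genes higher and 3 lower and 5 MRPS genes higher, and the exact test called 5, 1 and 4. With GC-adjusted offsets, chosen after seeing the data, 2 MRPS genes were higher and the large minus small median difference was -0.061. The causes were not tested. With each library left out, genes called in all ranged from 205 (without RB-BC 1) to 3648 (without DMSO 2), MRPL genes higher from 0 to 7 and lower from 0 to 8, MRPS genes higher from 0 to 4 and lower from 0 to 3, and the median difference from -0.0225 to 0.0792. In those fits the lone library is assumed to vary like the other group. None of the 30 genes named by the rule changed sign in the alternatives run. Of the members named outside it, MRPL36 (from -0.69 to 0.59), MRPL19, MRPL4, MRPL22, MRPL54 and MRPS36 did. Deviations from the group mean did not go together between libraries of the same replicate number (correlation -0.065 over 13744 genes). With 2 libraries per group this correlation cannot show whether libraries of the same number shared a culture or batch. With the replicate block 2114 genes were called in all and 3 MRPL genes higher. Library depth did not keep any member from being tested, but 2 libraries per group limit every call.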
